A study of Rattus norvegicus with 54 samples.

Results

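The genes described here were 10 genes of T cells and natural killer (NK) cells, Cd3e, Cd3d, Cd3g, Cd2, Cd5, Lck, Nkg7, Gzmb, Prf1 and Ncr1, measured in the hearts of rats that have no thymus. They were picked by name, matched to the symbol of each count table, and all 10 of them were present among 40319 genes in all 54 libraries. The animals were female athymic rats of the strain F344/NJcl-rnu/rnu, 8 weeks old at surgery, and all 3 groups shared this background. The Sham group had surgery without a ligation and no treatment. The MI group had a permanent ligation of the left anterior descending artery and no treatment. The MI+Cell Sheet group had the same ligation and then a sheet of human cells laid on the heart surface, with a layer of endothelial progenitor cells and a layer of smooth muscle cells made from mesenchymal stem cells. Polyadenylated RNA of the left ventricle was sequenced 1 week after surgery from 6 hearts of each group, with 1 piece each from the infarct zone (anterior wall), the border zone (lateral wall) and the remote zone (septum). The labels call the numbered hearts of a group technical replicates while the methods of the study describe separate animals, so the p-values below measure the spread between these samples, which may be partly technical. The zones of a sham heart carry the names of the matching positions and hold no infarct. Genes of the human sheet cells were not analysed here.

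T cells recognise antigen through a receptor that signals only when it is joined to the CD3 chains encoded by Cd3e, Cd3d and Cd3g, and the kinase Lck starts that signal. Cd5 dampens it, and Cd2 is an adhesion receptor of T cells and NK cells. T cells need a thymus to mature, and rnu/rnu rats lack one because of a mutation in Foxn1, whereas NK cells form without a thymus and kill with the granule proteins perforin (Prf1) and granzyme B (Gzmb), next to the granule membrane protein Nkg7. Ncr1 encodes NKp46, an activating receptor that is used as a marker of NK cells. After an infarct, leukocytes enter the injured wall, where lymphocytes are a minority beside neutrophils and macrophages. Foxn1 itself had 0 counts in all 18 sham libraries and at most 4 counts in any library, and as a gene of thymic epithelium and skin it does not test the genotype in heart tissue.

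The libraries held 12699204 to 23397754 counts on genes. Levels are given as CPM, which are counts scaled to the library total with TMM normalization factors over all 54 libraries. In bulk tissue, fewer cells of a type and less RNA per cell cannot be told apart. The sham heart with replicate number 5 stood apart from the other 5 sham hearts for nearly all of these genes in all 3 zones. It is therefore described separately, and the calls on the 10 genes are given with it and without it in each comparison with sham. It was set apart by the levels of the same genes that are tested. P-values from fits without it are conditional on that choice and give no independent support for a difference. Genes of the heart muscle cell list (8 of 8) were below the other 5 sham hearts in replicate 5 in each zone, as given with its values below. The share of all genes below those hearts was not counted. Gzmb is 1 member of a rat granzyme family with closely similar genes, and since the read counter and its strand setting are not stated, its counts may include or lack reads shared with them.

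Cd3g, Cd3d and Cd3e are direct neighbours in the rat annotation (GRCr8), and the levels of these 3 genes moved together across the libraries as given further on. The promoters of these 3 genes and of Gzmb, a granule gene with another pattern, are therefore shown. Each line holds the 250 bases before the annotated start, 5′ to 3′ on the strand of the gene, taken from RefSeq (GRCr8). Capitals mark matches on either strand to 4 motifs, which are ETS (AGGAAG or GGAAGT), RUNX (TGTGGT or TGCGGT), E box (CAGCTG or CAGGTG) and TATA box (TATAAA).
Cd3e: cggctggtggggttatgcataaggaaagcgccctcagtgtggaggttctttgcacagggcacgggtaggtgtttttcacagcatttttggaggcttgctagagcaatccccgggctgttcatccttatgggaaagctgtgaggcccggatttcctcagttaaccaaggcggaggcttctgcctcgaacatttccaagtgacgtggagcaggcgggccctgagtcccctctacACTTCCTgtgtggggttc
Cd3d: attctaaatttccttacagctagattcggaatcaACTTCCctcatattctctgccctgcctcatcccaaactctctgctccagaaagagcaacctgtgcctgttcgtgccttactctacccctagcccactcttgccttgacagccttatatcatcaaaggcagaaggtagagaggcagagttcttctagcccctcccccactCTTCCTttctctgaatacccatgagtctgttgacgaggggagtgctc
Cd3g: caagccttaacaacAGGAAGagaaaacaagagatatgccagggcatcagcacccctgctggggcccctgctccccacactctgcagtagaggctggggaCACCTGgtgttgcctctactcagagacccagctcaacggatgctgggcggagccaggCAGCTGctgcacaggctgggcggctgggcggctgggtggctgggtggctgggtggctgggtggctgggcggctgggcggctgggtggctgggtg
Gzmb: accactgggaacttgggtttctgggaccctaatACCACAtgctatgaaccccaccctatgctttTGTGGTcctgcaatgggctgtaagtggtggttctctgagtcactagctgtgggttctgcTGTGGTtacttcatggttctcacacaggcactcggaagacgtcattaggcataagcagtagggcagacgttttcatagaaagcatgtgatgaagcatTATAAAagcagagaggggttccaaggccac

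An ETS motif was found 1 time before Cd3e, 2 times before Cd3d and 1 time before Cd3g, and not before Gzmb. The 2 E box matches in this set were both before Cd3g. Before Gzmb there were 3 RUNX matches and 1 TATA box, and none of the CD3 promoters shown held either. Of all 33469 promoter windows of the same length, 38.7% held an ETS match, 19.0% a RUNX match, 25.8% an E box match and 12.9% a TATA box match. Among the 10 promoter entries that were found for 9 of the 10 genes, 8 held an ETS match and 6 a RUNX match. No entry was found for Ncr1. These are matches of letters only.

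In the 5 sham hearts other than replicate 5, the CD3 genes were low and at 0 in several libraries, with the highest levels of Cd3e and Cd3d in replicate 6, whereas Cd2 and the killer cell genes were detected in every library. Cd3e, the signalling chain epsilon, had 0, 0, 5, 2 and 6 counts in the infarct zone position of sham replicates 1, 2, 3, 4 and 6, 5, 2, 2, 7 and 25 counts in the border zone and 2, 0, 6, 6 and 49 counts in the remote zone. For Cd3d, the delta chain, the infarct position of these hearts held 1, 0, 1, 2 and 6 counts, the border zone 2, 0, 0, 0 and 6 and the remote zone 0, 0, 5, 3 and 8. The highest levels of Cd3e among these 15 libraries were those of replicate 6, at 3.43 CPM in the remote and 1.97 CPM in the border zone. Cd3g, the gamma chain, ranged from 0 to 1.75 CPM in the infarct zone, 0 to 1.10 in the border zone and 0 to 2.80 in the remote zone. Cd5, the inhibitory receptor, did not exceed 0.701 CPM in any of the 15 libraries.

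The genes that NK cells share with T cells, or carry alone, were detected in all of the same 15 libraries. Cd2 ranged from 2.54 to 8.83 CPM in the infarct zone, Nkg7 from 3.85 to 6.65, Prf1 from 2.91 to 7.09, Gzmb from 2.41 to 3.34 and Ncr1 from 1.85 to 4.64. Lck, which NK cells also use, lay lower, at 0.641 to 1.75 CPM. Within these hearts the infarct position was above the remote position for several killer cell genes, as tested below.

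Sham replicate 5 carried all of the T cell genes at far higher levels. Cd3e had 1785 counts in its infarct zone, 2587 in its border zone and 1645 in its remote zone, which is 102, 124 and 93.9 CPM. Cd3d stood at 38.1, 43.5 and 27.1 CPM in the infarct, border and remote zones and Cd3g at 74.5, 96.7 and 47.3 CPM. Relative to the highest of the other 5 sham hearts, Cd3e was higher by factors of 195, 62.7 and 27.3. In the infarct piece, Lck was at 50.2, Cd5 at 30.2, Cd2 at 76.2, Nkg7 at 81.9, Prf1 at 72.8 and Gzmb at 25.8 CPM. Ncr1 was the exception. It stood at 5.21, 6.17 and 2.34 CPM, against 1.85 to 4.64, 2.19 to 5.05 and 0.437 to 3.65 CPM in the other 5 sham hearts, so that its remote value lay inside their range.

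All 10 genes were above the other 5 sham hearts in the infarct and the border zone and 9 of them in the remote zone. Among all genes with a mean of at least 1 CPM over the 6 sham hearts of a zone, 38.4%, 39.5% and 37.3% were highest in replicate 5 in the infarct, border and remote zones. A level over 5 times that of the highest other sham heart was found for 9 of the 10 genes in each zone and for 4.58%, 4.96% and 4.25% of all genes. The 3 libraries of replicate 5 are pieces of 1 heart, and no test was made of a single heart.

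**Figure D1:**
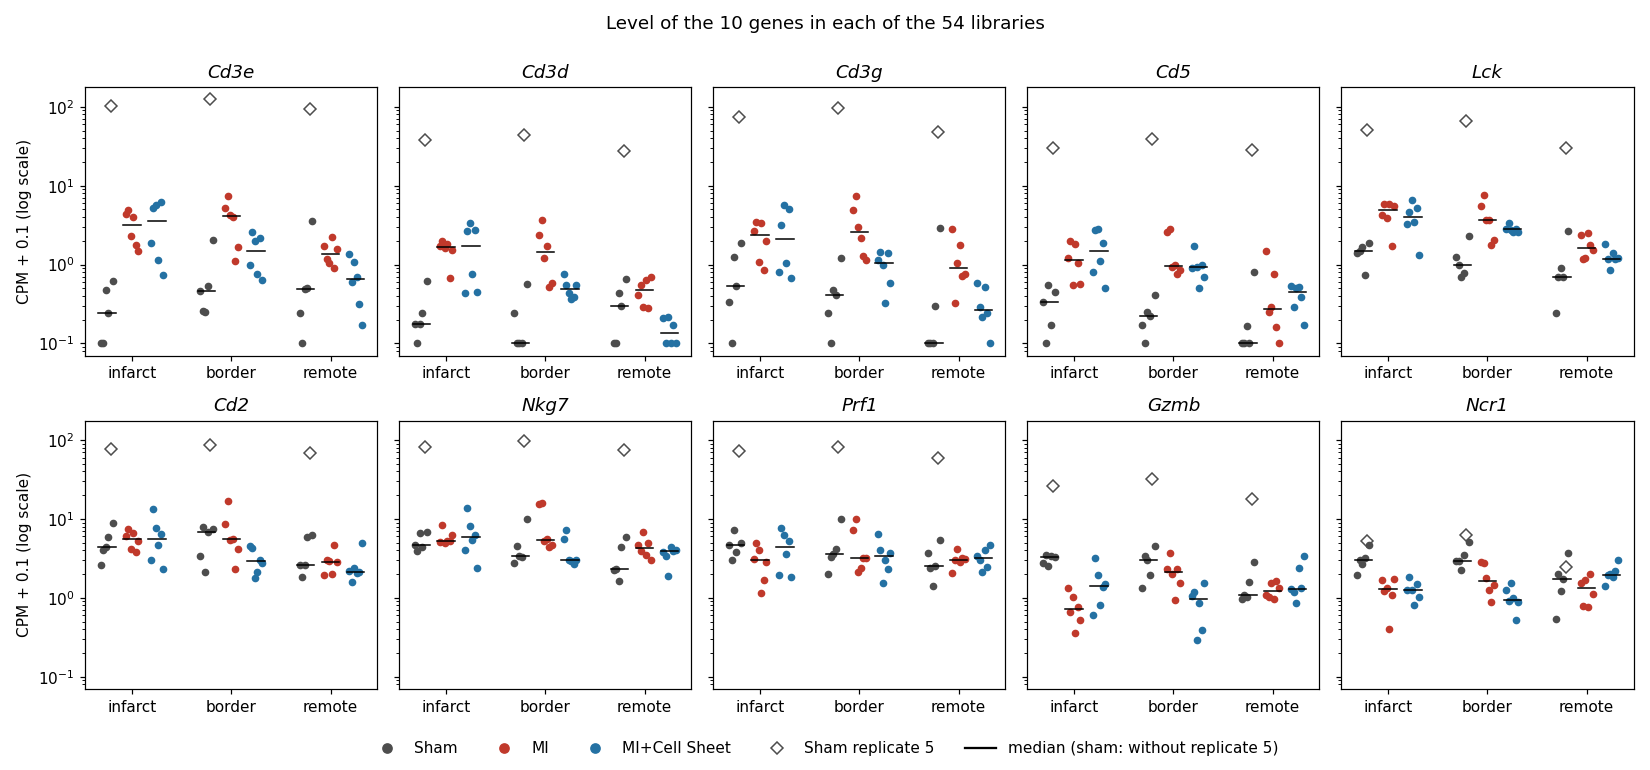
Level of each of the 10 genes (CPM + 0.1, log scale) by zone, with 1 point per library (6 hearts per group and zone). Sham replicate 5 is drawn as an open diamond and the bars are medians, which leave it out for sham. The diamonds lie above all other points for every gene but Ncr1.

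Other genes of the T cell receptor complex and its coreceptors were high in the same heart. In its infarct zone 12 of 12 genes of that list exceeded the other 5 sham hearts, among them Cd247 (the zeta chain) at 33.4 CPM against at most 3.15, Cd8b at 20.1 against at most 0.226 and Cd8a at 67.0 against at most 4.02. The list of T cell signalling and transcription genes had 22 of 23 genes above them, with Zap70 at 55.2 CPM and Foxp3, the factor of regulatory T cells, at 9.04 CPM. The NK and cytotoxic effector list had 34 of 35, with the interferon gene Ifng at 8.87 CPM against at most 0.0754, the activating receptor Klrk1 at 276 against at most 16.6 and the chemokine Ccl5 at 163 against at most 17.0. Chemokines that attract lymphocytes and their receptors were higher for 12 of 15, with Cxcl9 at 393 and Cxcl10 at 274 CPM against at most 11.4 and 6.55, and lymphocyte growth cytokines and their receptors for 13 of 14.

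Markers of other cells moved with them in this heart. In the infarct zone 8 of 9 general leukocyte genes, 12 of 13 macrophage genes, 7 of 8 dendritic cell genes, 9 of 10 B and plasma cell genes and 10 of 10 proliferation genes exceeded the other 5 sham hearts. The counts were 4 of 7 for neutrophil genes, 4 of 9 for mast cell genes and 0 of 7 for adipocyte genes. The pan-leukocyte gene Ptprc, which encodes CD45, was at 401 CPM against at most 29.5. The defining neutrophil genes were split. Csf3r was at 10.8 CPM against at most 1.71 and Cxcr2 at 1.37 CPM against at most 0.925, whereas S100a8, at 0.859 CPM, lay inside the range of the others and S100a9, at 1.49 CPM, below it. All 8 cardiomyocyte genes lay below the other 5 sham hearts, with Myh6 at 1899.6 CPM against 6098 or more. The share of all genes that lay below those hearts was not counted. The shares given above for higher genes cover only genes with a mean of at least 1 CPM, whereas the lists also hold genes under that level. From the list for thymocytes and lymph node stroma, 3 of 10 were above. Rag1, Rag2 and Ptcra, which immature thymocytes need to build their receptor, were at 0 in this library, and Ptcra had 2 counts and 1 count in the border and remote pieces of the same heart. Dntt, another thymocyte gene, had 4 counts, which is 0.229 CPM against at most 0.175. This level was not particular to replicate 5, since Dntt had infarct zone medians of 0.962 CPM in MI and 0.792 CPM in cell sheet hearts. The lymphoid chemokine Cxcl13, singled out after its value was seen, was at 353 CPM against at most 6.65. The part of these cell types in the levels of the 10 genes was not tested.

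**Figure D2:**
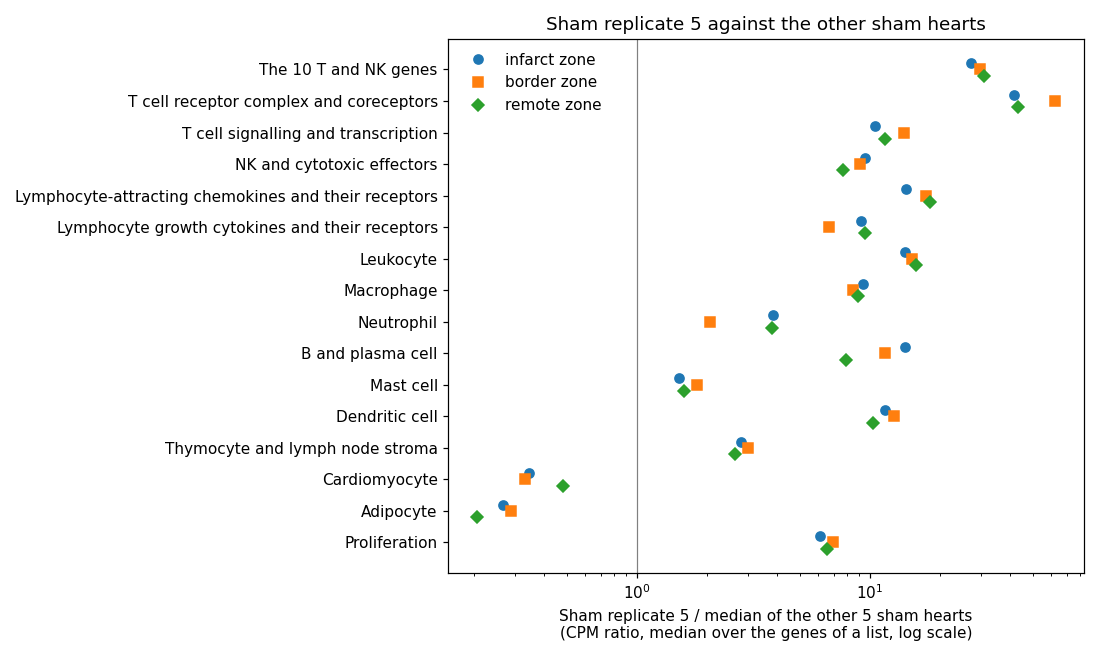
Ratio of the CPM in sham replicate 5 to the median CPM of the other 5 sham hearts, as the median over the genes of each list (log scale), with 1 marker per zone. The 10 T and NK genes have medians of 27.0 to 30.8, and cardiomyocyte genes lie below 1.

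The first comparison asked whether T and NK genes differ between infarcted and sham hearts. In the infarct zone, Cd3e, Cd3d and Lck were higher in MI than in the sham hearts other than replicate 5, and Gzmb and Ncr1 were lower. With all 6 sham hearts, no gene was higher and 3 of 9 tested were lower in MI (Gzmb, Prf1 and Ncr1), where 49.9% of all genes tested were called at an adjusted p under 0.05. Without sham replicate 5, 3 were higher (Cd3e, Cd3d and Lck) and 2 were lower (Gzmb and Ncr1) of 9 tested, where 64.8% of all genes were called. The shares among the 10 genes were therefore not above those of the transcriptome. Cd5 did not pass the filter on low counts in either fit. Genes were called higher in this zone only in the fit without replicate 5, which was left out for its levels of these genes.

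Cd3e had a lowest, median and highest level of 1.39, 3.04 and 4.88 CPM in the 6 MI hearts, against 0, 0, 0.377, 0.142 and 0.525 CPM in sham replicates 1, 2, 3, 4 and 6 and 102 CPM in replicate 5. The 6 MI hearts lay above all 5 sham hearts and below replicate 5. The log2 fold change was 3.86 ± 0.68 (SE, edgeR adjusted p = 0.000492) without replicate 5 and -2.54 ± 1.55 (SE, edgeR adjusted p = 0.189) with it. Cd3d stood at 0.582, 1.59 and 1.88 CPM, against 0.0771, 0, 0.0754, 0.142 and 0.525 CPM in the 5 sham hearts. These groups did not overlap, and the log2 fold change was 3.17 ± 0.60 (SE, edgeR adjusted p = 0.000786) without replicate 5 and -2.19 ± 1.40 with it. Lck stood at 1.61, 4.80 and 5.83 CPM against 1.31, 1.38, 1.58, 0.641 and 1.75 CPM. The lowest MI heart fell within the sham range, and the log2 fold change was 1.72 ± 0.35 (SE, edgeR adjusted p = 0.00122) without replicate 5 and -1.14 ± 1.00 with it. Cd3g changed by 1.61 ± 0.70 (SE, edgeR adjusted p = 0.0592) without replicate 5, which did not pass the threshold. In the fit without replicate 5, Cd3e and Cd3d passed the filter on low counts only through the MI libraries. A gene admitted in that way could hardly be called other than higher in MI, so no support is drawn from these calls.

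Gzmb and Ncr1 were lower in MI with and without replicate 5. Gzmb stood at 0.263, 0.616 and 1.22 CPM in MI and at 2.70, 3.34, 2.41, 3.28 and 3.24 CPM in sham replicates 1, 2, 3, 4 and 6, with no overlap. The log2 fold change was -2.15 ± 0.34 (SE, edgeR adjusted p = 0.000268) without replicate 5 and -3.35 ± 0.71 (SE, edgeR adjusted p = 0.00303) with it. Ncr1 stood at 0.307, 1.18 and 1.63 CPM in MI and 1.85, 2.91, 2.56, 3.06 and 4.64 CPM in sham, again with no overlap, and its log2 fold change was -1.40 ± 0.37 (SE, edgeR adjusted p = 0.00565) and -1.57 ± 0.38 (SE, edgeR adjusted p = 0.00544), in the same order. Prf1, the pore-forming protein, was lower by the test only with replicate 5 included, at -2.52 ± 0.85 (SE, edgeR adjusted p = 0.0266) against -0.70 ± 0.36 (SE, edgeR adjusted p = 0.109) without it. Cd2 and Nkg7 had log2 fold changes of 0.10 ± 0.30 and 0.15 ± 0.20 without replicate 5, which did not pass the test. Cd2 stood at 3.76, 5.54 and 7.44 CPM in MI, Nkg7 at 4.89, 5.18 and 8.36 CPM and Prf1 at 1.05, 2.90 and 4.80 CPM, and each of these ranges overlapped that of the 5 sham hearts. Cd5 had 21, 47, 9, 39, 21 and 10 counts in the 6 MI hearts and 3, 0, 6, 1 and 4 in sham replicates 1, 2, 3, 4 and 6.

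The wider lists were read without and with sham replicate 5, where 64.8% and 49.9% of all genes tested were called. Of the T cell receptor complex and coreceptor list, 7 higher and 0 lower of 10 tested (median log2 fold change 1.73) were called, beside a median of 0.04 over all genes tested. With all 6 sham hearts they were 0 higher and 2 lower of 10 tested (median log2 fold change -0.70). The CD8 chains rose, with Cd8b at 6.15 ± 0.70 (SE, edgeR adjusted p = 3.98e-05) and Cd8a at 3.95 ± 0.55 (SE, edgeR adjusted p = 0.000109). Cd8b also passed the filter on low counts only through the MI libraries. Cd4 rose by 1.44 ± 0.18 and the costimulator gene Icos by 2.02 ± 0.26. In rats, macrophages also carry Cd4 and NK cells also carry Cd8a. Cd247 and Zap70, signalling genes that NK cells share with T cells, had log2 fold changes of -0.07 ± 0.39 and -0.10 ± 0.25 and did not pass the test. Of the T cell signalling and transcription list, 9 higher and 3 lower of 19 tested (median log2 fold change 0.03) were called, and among the fallers were Foxp3 at -2.39 ± 0.42 and Bcl11b, a factor of T cell identity, at -1.12 ± 0.40. This list had 0 higher and 6 lower of 19 tested (median log2 fold change -1.35) with all 6 sham hearts. Between the infarct and the remote zone of cell sheet hearts, Bcl11b and Foxp3 were also lower, at -1.92 ± 0.21 and -1.16 ± 0.29, where Cd3e was higher. In MI hearts Bcl11b had -0.09 ± 0.35 between these zones and did not pass the test. Which cells carried these genes was not tested.

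Of the NK and cytotoxic effector list, 9 higher and 6 lower of 24 tested (median log2 fold change 0.20) were called without replicate 5, and 0 higher and 9 lower of 24 tested (median log2 fold change -1.29) with all 6 sham hearts. In these fits 64.8% and 49.9% of all genes tested were called. The fallers without replicate 5 included Gzma at -2.26 ± 0.38 (SE, edgeR adjusted p = 0.000343), the interleukin receptor chain Il2rb at -1.47 ± 0.22 and the NK receptor Klrb1a at -0.83 ± 0.27. The genes with the lowest adjusted p in that list were Fcgr3a, Tyrobp and Ctsw, which rose by 3.37 ± 0.26, 2.44 ± 0.34 and 2.92 ± 0.42, and Fcgr3a and Tyrobp are also carried by macrophages. Ptprc rose by 2.24 ± 0.29, 13 of 13 macrophage genes were higher and all 8 cardiomyocyte genes were lower in the same fit. With all 6 sham hearts 6 of 13 macrophage genes were higher, 8 cardiomyocyte genes were lower and the log2 fold change of Ptprc was 0.30 ± 0.80. The summed CPM of the macrophage list was 2987 to 16019 in MI and 500.4 to 955 in the 5 sham hearts. The part of this change in cell makeup in the levels of the 10 genes was not tested.

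At the border, Cd3e, Cd3g, Cd5 and Lck were higher and Ncr1 was lower in MI when sham replicate 5 was left out. With all 6 sham hearts, Ncr1 was the only one of 9 tested genes that passed the test and it was lower in MI, where 41.7% of all genes were called. Without sham replicate 5 these 5 of 9 were called, where 60.8% of all genes were called. Cd3d did not pass the filter in either fit. It had 39, 79, 24, 31, 7 and 9 counts in the 6 MI hearts, 2, 0, 0, 0 and 6 in sham replicates 1, 2, 3, 4 and 6 and 909 in replicate 5.

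Cd3e had a lowest, median and highest level of 1.01, 4.00 and 7.35 CPM in MI against 0.362, 0.160, 0.151, 0.434 and 1.97 CPM in sham replicates 1, 2, 3, 4 and 6. The ranges overlapped through replicate 6, and the log2 fold change was 2.65 ± 0.69 (SE, edgeR adjusted p = 0.00564) without replicate 5 and -2.46 ± 1.47 (SE, edgeR adjusted p = 0.194) with it. Cd5 stood at 0.654, 0.856 and 2.74 CPM in MI and 0.0724, 0, 0.151, 0.124 and 0.316 CPM in the 5 sham hearts, with no overlap and a log2 fold change of 3.33 ± 0.66 (SE, edgeR adjusted p = 0.00112) without replicate 5 and -2.27 ± 1.45 with it. Without replicate 5, Cd5 passed the filter on low counts only through the MI libraries, and Cd3e needed them to pass. No support is drawn from these calls. Cd3g changed by 3.05 ± 0.74 (SE, edgeR adjusted p = 0.00377) and Lck by 1.85 ± 0.46 (SE, edgeR adjusted p = 0.00452) without replicate 5, and by -2.35 ± 1.50 and -1.59 ± 1.14 with it. Ncr1 stood at 0.773, 1.53 and 2.74 CPM in MI and 2.82, 2.79, 2.19, 3.41 and 5.05 CPM in the 5 sham hearts. These ranges overlapped, and the log2 fold change was -0.89 ± 0.34 (SE, edgeR adjusted p = 0.0385) without replicate 5 and -1.10 ± 0.36 (SE, edgeR adjusted p = 0.0274) with it. The call of Ncr1 with all sham hearts was lost when sham replicate 6, MI replicate 3, MI replicate 4 or MI replicate 6 was left out, which left 0 of the 9 genes called, and without sham replicate 1 there were 2. The shares of all genes called in those fits are not given. Gzmb, at -0.42 ± 0.39 (SE, edgeR adjusted p = 0.359) without replicate 5, did not pass the test here, with 0.829, 2.05 and 3.63 CPM in MI and 1.23, 3.27, 2.94, 1.86 and 4.50 CPM in the 5 sham hearts. Cd3g ranged from 1.03 to 7.26 CPM and Lck from 1.67 to 7.58 in MI, against 0 to 1.10 and 0.603 to 2.21 in the 5 sham hearts. Cd2, Nkg7 and Prf1 had log2 fold changes of 0.39 ± 0.49, 0.87 ± 0.47 and 0.04 ± 0.50 without replicate 5 and did not pass the test.

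In the border zone the wider lists were also read with and without sham replicate 5, where 41.7% and 60.8% of all genes were called. Without it, the T cell receptor complex and coreceptor list had 6 higher and 0 lower of 10 tested (median log2 fold change 1.39), beside a median of 0.03 over all genes. With all 6 sham hearts it had 0 higher and 0 lower of 10 tested (median log2 fold change -1.05), 2 of them at an unadjusted p under 0.05. Without replicate 5, the genes with the lowest adjusted p were Cd4 at 1.43 ± 0.20, Cd8b at 5.31 ± 0.84 and Cd6 at 2.48 ± 0.42. The NK and cytotoxic effector list had 8 higher and 4 lower of 23 tested (median log2 fold change 0.64) without replicate 5 and 0 higher and 6 lower of 24 tested (median log2 fold change -1.13) with it. Without it, Gzma was again lower at -1.90 ± 0.53 (SE, edgeR adjusted p = 0.00880) and Il2rb at -1.08 ± 0.29. Chemokines and receptors that attract lymphocytes had 8 higher and 2 lower of 15 tested (median log2 fold change 1.11) without replicate 5 and 1 higher and 2 lower of 15 tested (median log2 fold change -0.60) with it, and without it Cxcl9 and Cxcl10 had log2 fold changes of 0.70 ± 0.54 (SE, edgeR adjusted p = 0.274) and 1.73 ± 0.68 (SE, edgeR adjusted p = 0.0434).

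In the remote zone none of 8 tested genes passed the edgeR test with all 6 sham hearts, although 4 had an unadjusted p under 0.05, and 25.8% of all genes were called. DESeq2 gave a p for 1 member only and did not call it. Without sham replicate 5 none of 8 was called either, where 46.5% of all genes were. Cd3e stood at 0.799, 1.27 and 2.12 CPM in MI and at 0.146, 0, 0.396, 0.403 and 3.43 CPM in sham replicates 1, 2, 3, 4 and 6. The highest of these sham hearts, replicate 6, exceeded all 6 MI hearts, and the log2 fold change was 0.61 ± 0.75 (SE, edgeR adjusted p = 0.533) without replicate 5. Ncr1 stood at 0.663, 1.23 and 1.90 CPM in MI and 0.437, 1.93, 1.12, 1.61 and 3.65 CPM in sham, with a log2 fold change of -0.52 ± 0.46 (SE, edgeR adjusted p = 0.369). Leaving out sham replicate 1, 2 or 3 in place of replicate 5 gave 1 call each, Cd2, which was then lower. The shares of all genes called in those fits are not given. Without replicate 5, Lck had 0.82 ± 0.51, Cd3g 0.91 ± 0.99, Nkg7 0.46 ± 0.33, Cd2 -0.42 ± 0.35, Gzmb -0.26 ± 0.35 and Prf1 -0.00915 as log2 fold changes. Cd3d and Cd5 did not pass the filter, with at most 0.590 and 1.37 CPM in MI.

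**Figure D3:**
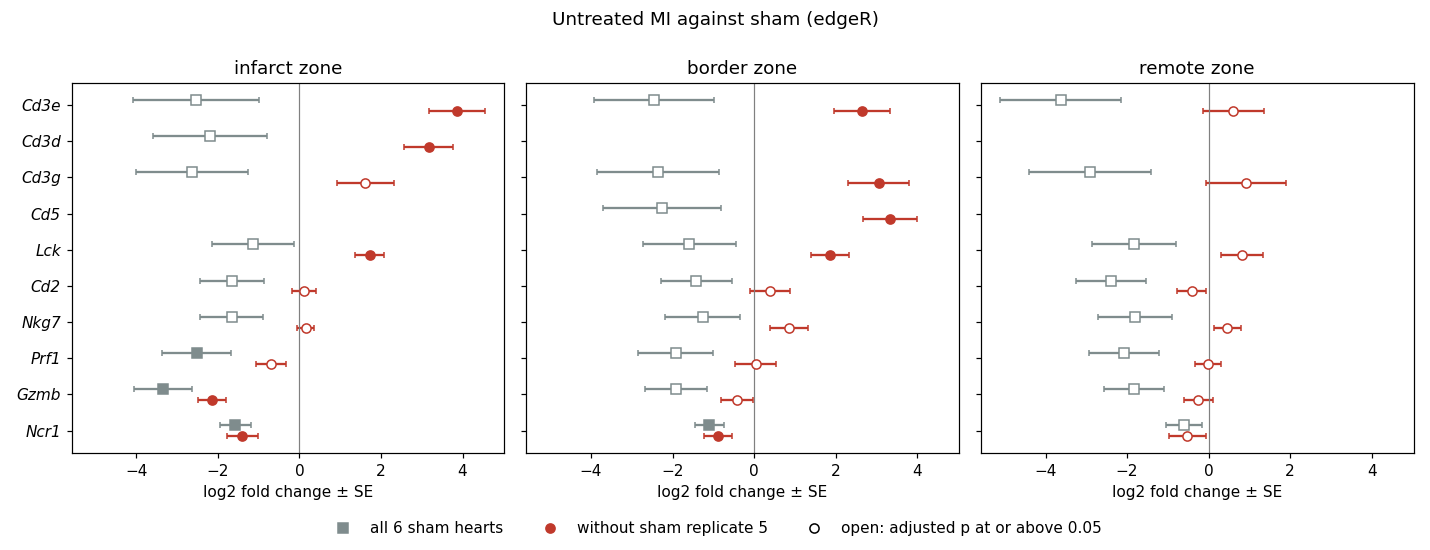
Log2 fold change ± SE of each gene between MI and sham in the 3 zones (edgeR), with all 6 sham hearts (squares) and without sham replicate 5 (circles), where filled markers passed an adjusted p of 0.05. The T cell genes Cd3e and Lck lie left of 0 with replicate 5 and right of 0 without it, whereas Ncr1 lies left of 0 in both.

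Whether the MI effect differed between the infarct and the remote zone was tested in 1 model over both zones that held the animal as a block. With all 6 sham hearts, the log2 fold change of MI against sham was higher (less negative) in the infarct zone than in the remote zone for Cd3e and Cd3d, by 1.84 ± 0.54 (SE, edgeR adjusted p = 0.0235) and 1.87 ± 0.49 (SE, edgeR adjusted p = 0.0143) on the log2 scale, and for Gzmb it was lower in the infarct zone, with a difference of -1.91 ± 0.39 (SE, edgeR adjusted p = 0.00367). These 3 of 10 genes were called, where 28.9% of all genes tested were. They were called with the same directions without sham replicate 5, at 2.78 ± 0.70, 2.38 ± 0.75 and -2.08 ± 0.46, where 24.8% of all genes were. Without the block no member was called, and the share of all genes called in that fit is not given. Ncr1, at -1.10 ± 0.41 (SE, edgeR adjusted p = 0.0569), did not pass the threshold.

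The second comparison asked whether the cell sheet changed these genes in infarcted hearts. It does not use the sham hearts. In the infarct zone none of the 10 genes was called by edgeR, 1 had an unadjusted p under 0.05, and 0% of all 16196 genes tested were called, while 1341 had an unadjusted p under 0.05. DESeq2 called 59 genes, 0.208% of those it tested, and none of the 10. Cd3e stood at 0.636, 3.46 and 6.13 CPM with the sheet and 1.39, 3.04 and 4.88 CPM without it, and the cell sheet hearts spread wider on both sides. Its log2 fold change was 0.15 ± 0.54 (SE, edgeR adjusted p = 0.960). Lck stood at 1.21, 3.95 and 6.55 CPM and 1.61, 4.80 and 5.83 CPM, and Cd3d at 0.335, 1.62 and 3.27 CPM and 0.582, 1.59 and 1.88 CPM, with overlap in both. Gzmb had the farthest value from 0, at 1.11 ± 0.47 (SE, edgeR adjusted p = 0.568), with levels of 0.503, 1.33 and 3.10 CPM with the sheet and 0.263, 0.616 and 1.22 CPM without. The standard errors of the 10 genes lay between 0.344 and 0.599 on the log2 scale and equal levels in both groups were not shown.

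In the border zone all 10 genes had lower fitted levels with the cell sheet, and 2 of them, Cd3d and Cd3g, passed the test, where 18% of all genes tested were called in either direction. The 2 calls of 10 are close to that share and are not read as a result about the 10 genes. The share of all genes with a lower fitted level was not counted. The levels of the CD3 genes moved together, so the 10 genes are not separate observations. Cd3d stood at 0.265, 0.391 and 0.657 CPM with the sheet and 0.416, 1.36 and 3.54 CPM without it. The ranges overlapped at their ends, and the log2 fold change was -1.93 ± 0.50 (SE, edgeR adjusted p = 0.0200). Cd3g stood at 0.221, 0.958 and 1.36 CPM and 1.03, 2.49 and 7.26 CPM, with a log2 fold change of -1.86 ± 0.54 (SE, edgeR adjusted p = 0.0318). Cd3e, at 0.541, 1.39 and 2.45 CPM with the sheet and 1.01, 4.00 and 7.35 CPM without, had -1.43 ± 0.51 (SE, edgeR adjusted p = 0.0690) and missed the threshold. Cd2, Gzmb and Nkg7 had log2 fold changes of -1.24 ± 0.43, -1.37 ± 0.47 and -1.09 ± 0.41, with adjusted p-values of 0.0658, 0.0607 and 0.0905 by edgeR. Of the remaining members, Lck had -0.53 ± 0.32, Prf1 -0.42 ± 0.45, Cd5 -0.69 ± 0.45 and Ncr1 -0.91 ± 0.36. Gzmb stood at 0.194, 0.858 and 1.43 CPM with the sheet and 0.829, 2.05 and 3.63 CPM without it, and Ncr1 at 0.416, 0.849 and 1.46 CPM and 0.773, 1.53 and 2.74 CPM. The groups overlapped for both genes.

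These calls were sensitive to single hearts and to the tool. DESeq2 called 6 of the 10, all lower, where it called 13% of all genes, whereas a fit of all 9 groups together called none. Without MI+Cell Sheet replicate 5 none was called, without MI replicate 1 or 2 or MI+Cell Sheet replicate 3 or 4 there was 1, and without MI replicate 5 there were 4. The share of all genes called is not given for these fits or for the fit of all 9 groups. A change in calls over all genes can therefore not be told apart from a change in the 10 genes. Of the lists around them, T cell receptor complex and coreceptor genes had 0 higher and 3 lower of 11 tested (median log2 fold change -0.85) and NK and cytotoxic effector genes had 0 higher and 7 lower of 24 tested (median log2 fold change -0.88), beside a median of -0.00443 over all genes. In this edgeR fit 18% of all genes tested were called. The lowest adjusted p-values in these lists were those of Cd96, a receptor of T and NK cells, at -1.31 ± 0.23 (SE, edgeR adjusted p = 0.00299), the inhibitory receptor Ctla4 at -1.15 ± 0.30, Klrb1a at -0.91 ± 0.22, the chemokine Xcl1 at -1.35 ± 0.33 and the adaptor Hcst at -1.19 ± 0.29. In the same fit 2 of 13 macrophage genes were lower, 4 of 9 mast cell genes and 3 of 5 adipocyte genes were higher, as were 2 of 5 B and plasma cell genes, and Ptprc changed by -0.24 ± 0.34. The B and plasma cell genes called were Igha, an antibody heavy chain, at 4.61 ± 0.95 (SE, edgeR adjusted p = 0.00648) and Jchain, which joins antibody units, at 2.35 ± 0.62 (SE, edgeR adjusted p = 0.0209). Of the adipocyte genes, Plin1, a lipid droplet protein, rose by 6.34 ± 1.53 (SE, edgeR adjusted p = 0.0142). It had a lowest, median and highest level of 0, 85.3 and 193 CPM with the sheet and 0, 0.262 and 4.38 CPM without it. The summed CPM of the adipocyte list, 301 to 1137 with the sheet and 259.6 to 889 without it, was carried in MI by Fabp4, at 256 to 855 CPM, which other cells also express. The part of these cell types in the levels of Cd3d and Cd3g was not tested.

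In the remote zone none of 7 tested genes was called by edgeR, where 17.1% of all genes were and 2 of the 7 had an unadjusted p under 0.05, and DESeq2 called 1 of 10, lower, and 13.6% of all genes. Cd3e had 23, 8, 17, 10, 3 and 1 counts with the sheet and 21, 14, 15, 32, 13 and 25 without it, and a log2 fold change of -1.12 ± 0.49 (SE, edgeR adjusted p = 0.121). Without MI+Cell Sheet replicate 1 there were 2 calls, and without MI replicate 2 or MI+Cell Sheet replicate 4 there was 1. The shares of all genes called in those fits are not given. When the infarct and border counts of each heart were summed, none of 10 genes was called and none had an unadjusted p under 0.05, where 12.1% of all genes were called, and DESeq2 called none either and 10.4% of all genes. The cell sheet effect was tested for a difference between the border and remote zones, and edgeR called none of 10 genes and 0% of all 16784 genes, with 2 of the 10 at an unadjusted p under 0.05, while DESeq2 with the animal as a block called 2 of the 10, both lower, and 3.54% of all genes. An effect particular to the border zone was therefore not shown by the edgeR test.

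**Figure D4:**
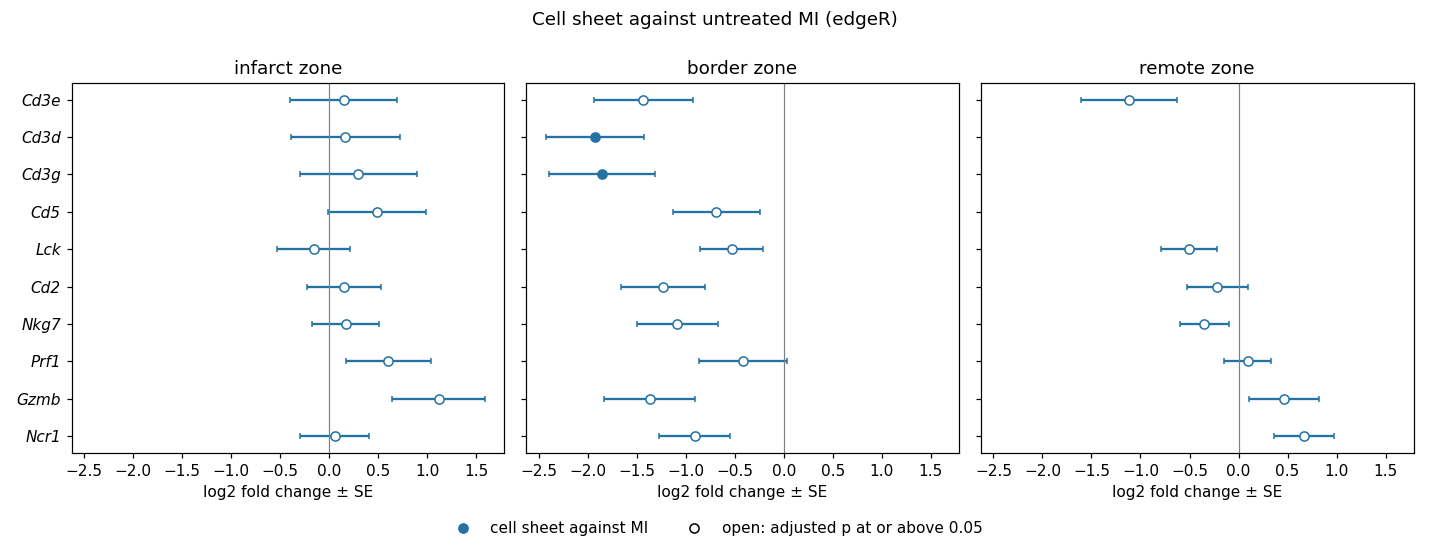
Log2 fold change ± SE of each gene between cell sheet-treated and untreated MI hearts in the 3 zones (edgeR, 6 hearts against 6), where filled markers passed an adjusted p of 0.05. All 10 genes lie left of 0 in the border zone and 2 of them are filled, where 18% of all genes tested were called.

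The cell sheet hearts were also set against sham. In the infarct zone, 2 of 9 genes were called with all 6 sham hearts, Gzmb and Ncr1, both lower, where 57.9% of all genes were called. Without sham replicate 5, Cd3e, Cd5 and Lck were higher and Gzmb and Ncr1 lower, where 70% of all genes were called. Cd3e rose by 4.00 ± 0.88 (SE, edgeR adjusted p = 0.00188) without replicate 5, and with it the value was -2.24 ± 1.59. Cd5 rose by 2.78 ± 0.71 (SE, edgeR adjusted p = 0.00441) and Lck by 1.55 ± 0.40 (SE, edgeR adjusted p = 0.00458) without replicate 5. In that fit Cd3e and Cd5 passed the filter on low counts only through the cell sheet libraries, so no support is drawn from their calls. Ncr1, at 0.710, 1.17 and 1.75 CPM, lay below all 6 sham hearts and changed by -1.35 ± 0.29 (SE, edgeR adjusted p = 0.00147) without replicate 5 and -1.49 ± 0.29 with it.

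In the border zone, Cd2, Gzmb and Ncr1 were lower by the test with all 6 sham hearts included, 3 of 9 tested, where 43.6% of all genes were called. Without replicate 5, Cd5 and Lck were higher and Gzmb and Ncr1 lower, where 61.6% of all genes were called. Cd5 passed the filter on low counts there only through the cell sheet libraries, so no support is drawn from its call. Ncr1 stood at 0.416, 0.849 and 1.46 CPM with the sheet, below every sham heart, and changed by -1.85 ± 0.31 (SE, edgeR adjusted p = 0.000408) without replicate 5. Gzmb stood at 0.194, 0.858 and 1.43 CPM and changed by -1.83 ± 0.48 (SE, edgeR adjusted p = 0.00649). Cd2, at -0.88 ± 0.37 (SE, edgeR adjusted p = 0.0554) without replicate 5, then missed the threshold. When sham replicate 1, 3 or 4 was left out in place of replicate 5, 6 genes were called, and without sham replicate 2 there were 5, all lower. The shares of all genes called in those fits are not given. In the remote zone none of 6 tested genes was called by edgeR with all sham hearts, with 4 at an unadjusted p under 0.05 and 0.0066% of all genes called, and none without replicate 5, where 0.111% of all genes were called. DESeq2 gave a p for 1 member there and did not call it.

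The levels of Ncr1 are placed side by side here. The comparisons of MI and of cell sheet hearts with sham share the sham libraries and are not independent. Its medians in the infarct zone were 2.91 CPM in the 5 sham hearts, 1.18 CPM in MI and 1.17 CPM with the sheet. In the border zone they were 2.82, 1.53 and 0.849 CPM, and in the remote zone 1.61, 1.23 and 1.87 CPM.

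Zones of the same heart were compared with the animal as a block. In sham hearts, Nkg7, Gzmb and Ncr1 were higher in the infarct position than in the septum, at 0.55 ± 0.20 (SE, edgeR adjusted p = 0.0453), 0.97 ± 0.21 (SE, edgeR adjusted p = 0.00229) and 0.95 ± 0.24 (SE, edgeR adjusted p = 0.00706) on the log2 scale. They were 3 of 6 tested, where 32.4% of all genes were called, and the same 3 were called without replicate 5, where 27.1% of all genes were. Without the block none was called, and the share of all genes called in that fit is not given. In the NK and cytotoxic effector list 12 higher and 0 lower of 23 tested (median log2 fold change 0.49) were called in the same comparison. In MI hearts, Cd3e, Cd3d, Cd2 and Lck were higher in the infarct zone, 4 of 10 tested, where 36.4% of all genes were called. Cd3d changed by 1.95 ± 0.34 (SE, edgeR adjusted p = 0.00912), Lck by 1.35 ± 0.33, Cd3e by 1.09 ± 0.31 and Cd2 by 0.97 ± 0.29. Leaving out MI replicate 2, 4 or 6 left 2 of these calls, and the shares of all genes called in those fits are not given. In cell sheet hearts, Cd3e, Cd3g and Lck were higher in the infarct zone and Ncr1 was lower, 4 of 8 tested, where 62.8% of all genes were called. Cd3g changed by 3.20 ± 0.82 (SE, edgeR adjusted p = 0.0120) and Cd3e by 2.33 ± 0.60, while Ncr1 changed by -0.74 ± 0.27 (SE, edgeR adjusted p = 0.0471). Ptprc rose by 1.14 ± 0.24 and 2.15 ± 0.38 from the remote to the infarct zone in the MI and the cell sheet hearts.

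Since total leukocyte RNA differed between groups, each gene was also expressed per 100 CPM of Ptprc, as a description without a test. Cd2, Nkg7 and Prf1 lay within the range of the other sham hearts in the infarct zone of replicate 5 and were lower in that zone of MI hearts. There, Cd2 was 19.0 in replicate 5, 14.3 to 30.0 in the other 5 sham hearts and 3.17 to 10.1 in MI. Nkg7 was 20.4, 18.5 to 27.6 and 3.81 to 8.51 in the same order, and the MI range lay below the sham range for both genes. Ptprc itself was higher in MI than in the other sham hearts in that zone, so a gene with the same CPM has a lower ratio. In CPM, Cd2, Nkg7 and Prf1 did not pass the test there without replicate 5, as given above. The T cell genes Cd3e, Cd3d, Cd3g, Cd5 and Lck were higher in replicate 5. Cd3e was 25.5 in replicate 5, 0 to 1.78 in the other sham hearts and 0.865 to 7.17 in MI, so that the ranges of MI and of the other sham hearts overlapped. Ncr1 was lower in replicate 5, at 1.30 against 10.4 to 15.7 in the other sham hearts, and 0.330 to 2.69 in MI.

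Gzmb lay below the other sham hearts in the infarct zone of replicate 5 and within their range in its border and remote zones. In the infarct zone it was 6.43 in replicate 5, 10.2 to 16.0 in the other 5 sham hearts and 0.260 to 2.06 in MI. In the remote zone the medians of Ncr1 were 8.82 in the 5 sham hearts, 2.82 in MI and 8.57 with the sheet, and replicate 5 stood at 0.660. Prf1 ranged from 8.44 to 16.4 in the remote zone of the 5 sham hearts and from 5.07 to 9.54 in MI. The cell sheet hearts ranged from 1.63 to 13.5 for Ncr1 and from 4.15 to 21.2 for Prf1.

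**Figure D5:**
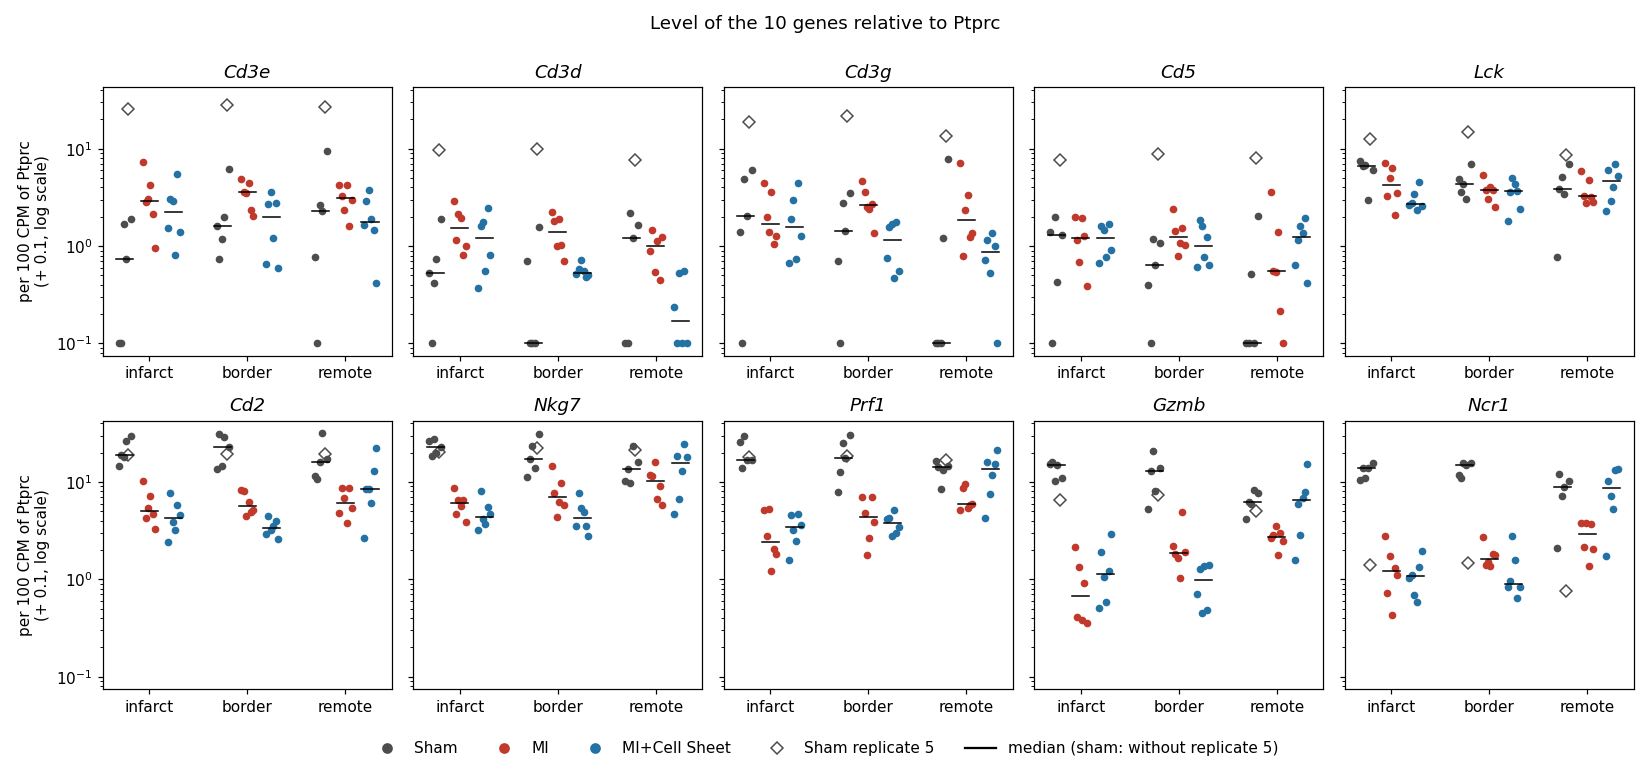
Level of each gene per 100 CPM of Ptprc (+ 0.1, log scale) by zone, with 1 point per library, sham replicate 5 as an open diamond and bars for medians that leave it out. The diamond lies above the other sham points for Cd3e, Cd3d, Cd3g, Cd5 and Lck, among them for Cd2 and Nkg7, and below them for Ncr1.

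Over all 54 libraries, Spearman's rho of log2 CPM was 0.89 between Cd3e and Cd3g, 0.88 between Cd3e and Cd3d, 0.86 between Cd3d and Cd3g and -0.13 between Cd3e and Ncr1, and without the 3 libraries of sham replicate 5 the last was -0.31. Nkg7 and Prf1 gave 0.67. The libraries are 3 zones of 18 hearts and share their treatment groups, so these values are descriptions. The genes most like Cd3e among 18087 genes were Ctsw (0.91), RT1-Da (0.90), LOC690862 (0.90), RT1-Bb (0.89) and RT1-Db1 (0.89), of which the RT1 genes are rat class II histocompatibility genes and Ctsw is a protease of cytotoxic lymphocytes. Those most like Nkg7 were Septin1 (0.83), Psmb10 (0.81), Klrk1 (0.80), LOC102554731 (0.80) and Casp1 (0.80). Those most like Ncr1 were Il2rb (0.81), RGD1562667 (0.78), Cryba4 (0.76), Klrb1c (0.74) and Tbc1d10c (0.73), with Il2rb and Klrb1c known from NK cells. The same 5 genes were found without sham replicate 5 for Cd3e and Nkg7, and 3 of the 5 for Ncr1.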

How the data were processed

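RNA of 54 heart pieces was aligned by the authors with STAR to the rat genome (mRatBN7.2), and the deposited files hold raw counts per gene symbol. The tool that counted reads, and whether it used strand, are not given in the sources used here. 40319 genes entered, with 12699204 to 23397754 counts per library, and the summary lines that name no gene, with 17.0% to 42.8% of all counts, were left out. This depth, with no molecular identifiers, sets counting error only. No 2 libraries of the same group and zone agreed within sampling noise (135 pairs). Pairs across groups or zones were not compared.

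Groups were compared within a zone by edgeR's quasi-likelihood F test (edgeR 4.0.16, R 4.3.3, filterByExpr, TMM factors) over all genes, with Benjamini-Hochberg adjustment and a threshold of 0.05. Samples of 1 zone and the 2 groups compared entered each fit. A gene that is low in 1 group can pass filterByExpr through the other group alone. Its call then has hardly more than 1 possible direction. Zones of a heart were compared with the animal as a block, since the zones come from the same hearts by the methods of the study, and same-numbered pairs correlated at 0.32 to 0.93 in sham, -0.27 to 0.44 in MI and -0.22 to 0.45 in cell sheet hearts. Numbers shared between groups do not pair the hearts by design, and such pairs had r from -0.68 to 0.55. The values in MI and cell sheet hearts lay inside that range. In these groups the block therefore rests on the design and not on the correlations. SE is the log2 fold change divided by the root of F. Likeness is Spearman's rho of log2(CPM + 0.1) over genes with 10 counts in at least 6 libraries. DESeq2 1.42.0, other filters and scalings, a replicate block, 1 fit of all groups and leaving out each heart were alternatives. Counts for MI against sham in the infarct zone were also simulated, with both groups drawn from the MI libraries. Of 15383 genes, 200 were raised or lowered 4-fold. The test called 187 genes, of which 179 were changed genes. No heart like sham replicate 5 was simulated, so this recovery does not describe the fits that include it.

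The members and lists were chosen with earlier results of these data known. From each list, the 3 genes with the lowest adjusted p in a comparison and its defining markers could be named, with the 5 genes most like Cd3e, Nkg7 and Ncr1. Promoters are from RefSeq (GRCr8).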

Additional observations from a re-analysis of the deposited data

Results flagged for a closer look

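Of the 90 sets of 6 libraries (10 genes in 9 groups), 31 held a library whose gap to its nearest neighbour was above Dixon's 95% critical value for 6 samples as a share of the range of the set. Chance alone flags about 1 in 20 sets. In 27 of them the library was sham replicate 5, for all genes but Ncr1, and its levels are given in the order infarct zone, border zone, remote zone. Cd3e stood at 102, 124 and 93.9 CPM. Cd3d stood at 38.1, 43.5 and 27.1 CPM. Cd3g stood at 74.5, 96.7 and 47.3 CPM. Cd2 stood at 76.2, 85.9 and 68.6 CPM. Cd5 stood at 30.2, 39.2 and 28.1 CPM. Lck stood at 50.2, 65.7 and 30.1 CPM. Nkg7 stood at 81.9, 98.1 and 75.0 CPM. Gzmb stood at 25.8, 32.0 and 17.6 CPM. Prf1 stood at 72.8, 81.9 and 59.3 CPM. The 27 values come from 3 pieces of 1 heart and are not independent of each other.

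The other 4 flags were single libraries. Cd3d was at 0.582 CPM in MI infarct replicate 5, the lowest of its group, and Nkg7 at 8.36 CPM in MI infarct replicate 2, the highest. Cd2 was at 4.80 CPM in MI+Cell Sheet remote replicate 6 and Lck at 3.26 CPM in MI+Cell Sheet border replicate 2, both the highest of their groups.

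The effect of MI against sham differed between the infarct and the remote zone by a test of the difference itself (edgeR, animal as a block) for Cd3e at 1.84, Cd3d at 1.87 and Gzmb at -1.91 on the log2 scale. In the same test 28.9% of all genes tested were called, so these calls are not read as a result about the T and NK genes as a set. Without the animal as a block, none of the T and NK genes was called.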

How the results depend on the processing

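With 1 heart left out in turn, the fitted log2 fold change of MI against sham ran, for the infarct zone, from -2.80 to 3.86 for Cd3e, -2.45 to 3.17 for Cd3d and -1.39 to 1.72 for Lck, and for the border zone from -2.75 to 2.65 for Cd3e, -2.77 to 3.05 for Cd3g, -2.58 to 3.33 for Cd5 and -1.87 to 1.85 for Lck. For the cell sheet against sham it ran from -2.59 to 4.00 for Cd3e, -2.04 to 2.78 for Cd5 and -1.49 to 1.55 for Lck in the infarct zone, and from -3.23 to 2.61 for Cd5 and -2.36 to 1.28 for Lck in the border zone. The upper end of each range was the fit without sham replicate 5, and these 12 were the only sign changes in which a call was involved. The number of the 10 genes called, with 1 heart left out, ran for MI against sham from 2 to 5 (infarct), 0 to 5 (border) and 0 to 1 (remote). It ran for the cell sheet against MI from 0 to 4 (border) and 0 to 2 (remote), for the cell sheet against sham from 2 to 5 in the infarct zone and 3 to 6 in the border zone, and for infarct against remote zone of MI hearts from 2 to 3. DESeq2 called 1 in the MI and 1 in the cell sheet infarct zone against sham, where it gave no p for the other 9 genes, 6 (border) and 1 (remote) for the cell sheet against MI, and with the animal as a block 7 between zones of cell sheet hearts and 2 for the difference of the cell sheet effect between zones. With at least 10 counts in every library, which left fewer genes tested, 1 was called for MI against sham in the infarct zone and 0 for the cell sheet against MI in the border zone. Without TMM factors 0 were called for MI against sham in the border zone, and without the filter on low counts 7 between zones of sham hearts. With all 9 groups in 1 fit the counts were 3 and 1 for MI against sham in the border and remote zones, 0 for the cell sheet against MI in the border zone and 8 for the cell sheet against sham in the border zone. Same-numbered hearts of different groups share only a number, and with a replicate block on that pairing 0 were called for MI against sham, 1 for the cell sheet against MI and 1 for the cell sheet against sham in the border zone. With no replicate block, in place of the animal, 0 were called between zones of sham hearts and 0 for the difference of the MI effect between zones. Over all genes, DESeq2 called 4043 higher and 4987 lower of 27469 for MI against sham in the infarct zone. With the animal as a block it called 5613 higher and 5643 lower of 28316 between zones of cell sheet hearts. Except where given here or above, the share of all genes called is not given for these settings. The counts therefore describe the settings and are not read as results about the 10 genes. The causes were not tested. Of the other values for single genes over all settings, 1987 kept their direction and side of the threshold, 53 lost a call, 53 gained one and 117 moved otherwise. Levels under 1 CPM have wide errors in their folds.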
